A study of Homo sapiens with 13 samples.

Results

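Promoters of long noncoding RNA (lncRNA) genes were examined in accessibility data of T98G cells, an established human glioblastoma line. A peak was counted as such a promoter when it overlapped at least 1 annotated transcription start site (TSS), when every TSS it overlapped belonged to a lncRNA gene of GENCODE release 44 on hg19, and when it lay more than 2 kb from any protein-coding TSS. This held for 1595 of 129347 peaks, which covered a TSS of 1610 of the 18702 annotated lncRNA genes. The rule itself uses position and annotation only. A further 144 of the 1739 peaks that touched lncRNA TSSs alone lay within 2 kb of a protein-coding TSS and were left out. On the log2(scaled count + 8) scale, the 10 members closest to that limit changed by -1.0 to 1.70 (median 0.43), and the 10 peaks just inside it by -0.48 to 1.58 (median 0.25).

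G1 cells had been serum starved for 72 h, and M-phase cells had been starved for 48 h, released for 36 h into medium with nocodazole, a microtubule poison that holds cells in mitosis, and collected by shaking. Each phase had 3 ATAC-seq libraries, in which the Tn5 transposase cuts and tags open DNA so that reads pile up at accessible chromatin. The authors counted reads in each peak and scaled every library down to the smallest one, which gave the values called scaled counts here, and their sum over all peaks ran from 4191845 to 5092426 in G1 and from 5475345 to 6000423 in M-phase. Serum release, nocodazole and a second sequencing platform came together with M-phase, and their parts cannot be told apart, and nothing in the labels says that the replicates were separate cultures, so p-values measure the spread between libraries, which may be technical. Of 6 marker promoters of mesenchymal and astroglial glioma cells, VIM (mean scaled count 272 in G1 and 961 in M-phase), CD44 (155 and 206) and SOX2 (11.6 and 7.70) lay in a peak, and no TSS of NES, GFAP or S100B did.

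lncRNA genes are transcribed by RNA polymerase II and mostly spliced, like protein-coding genes, but their RNAs do not encode a protein. Some act as RNAs, as scaffolds of nuclear bodies or as binding partners of proteins, some are hosts from which microRNAs or small nucleolar RNAs (snoRNAs) are cut, and for many no role is known. Their start sites fall into CpG-rich promoters, stretches dense in the CG dinucleotide, and CpG-poor promoters, which resemble enhancers in sequence. In mitosis chromosomes condense and most transcription stops, while many promoters stay accessible.

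The contrast between both promoter kinds can be seen in the central 200 bases of a pair of peaks, shown because one rose and the other fell by about as much. CG dinucleotides are in capitals, with 29 in the first window and 1 in the second, and both are read 5′ to 3′ on the plus strand of hg19.
LINC02939 and MIRLET7BHG, chr22:46466589-46466788: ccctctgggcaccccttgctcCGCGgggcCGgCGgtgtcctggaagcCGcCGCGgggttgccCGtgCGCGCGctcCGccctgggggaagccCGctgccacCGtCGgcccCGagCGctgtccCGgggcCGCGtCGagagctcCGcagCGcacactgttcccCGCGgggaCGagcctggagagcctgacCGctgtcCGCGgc
PDK4-AS1, chr7:95238369-95238568: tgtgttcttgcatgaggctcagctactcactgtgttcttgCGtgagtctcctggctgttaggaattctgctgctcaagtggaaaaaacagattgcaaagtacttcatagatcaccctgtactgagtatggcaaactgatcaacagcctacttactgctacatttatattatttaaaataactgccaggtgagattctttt

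A further set is shown because 4 of the 10 largest rises, the largest among them, held these sites. Genes of RNA polymerase III such as tRNA genes carry their promoter inside the gene, as an A box followed downstream by a B box. An A box with a B box (letters GTTCGANNC, either strand) was found in 15 of the 1595 peaks. Of the 3 stretches below, that of LINC01962 is read on the plus strand of hg19 and the other two on the minus strand, and capitals mark the A box and then the B box.
ENSG00000286644, chr5:180645268-180645347: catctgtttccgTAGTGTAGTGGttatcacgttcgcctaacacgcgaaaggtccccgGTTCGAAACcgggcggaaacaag
LINC01962, chr5:180614696-180614784: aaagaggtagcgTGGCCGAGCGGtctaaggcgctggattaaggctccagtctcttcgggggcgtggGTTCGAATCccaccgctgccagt
ENSG00000261889, chr16:3207404-3207483: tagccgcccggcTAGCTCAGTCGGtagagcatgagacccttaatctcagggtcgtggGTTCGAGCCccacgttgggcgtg

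With the deposited scaling, lncRNA promoters that changed rose more often than they fell. Of the 1595 peaks 1449 passed the filter on low counts and 146 did not. Of those tested, 347 (23.9%) rose and 182 (12.6%) fell from G1 to M-phase with an adjusted p under 0.05 in limma (Benjamini-Hochberg over 73121 tested peaks), and 920 were neither. Over all tested peaks the shares were 14.3% higher and 13.1% lower, so the share of falls among lncRNA promoters was near the background. At the stricter threshold of an adjusted p of at most 0.001 and a 1.5-fold change, 184 rose and 59 fell, against 7.32% and 4.49% of all tested peaks. In 433 (29.9%) every M-phase library lay above every G1 library and in 237 (16.4%) below, against 19.7% and 18.6% of all tested peaks. Protein-coding-only promoter peaks, 10434 tested, were higher in 43.6% and lower in 5.79%, and peaks over 2 kb from any TSS, 48369 tested, in 6.17% and 15.5%. Across the 1595 peaks 1054 (66.1%) changed less than 1.5-fold, against 78.6% of all peaks. The mean log2 values of both phases correlated with r = 0.913 over the lncRNA promoters and 0.927 over all peaks (peaks are not independent replicates, and all share the 6 libraries). Pairs of libraries correlated with r of 0.943 to 0.950 within G1, 0.968 to 0.975 within M-phase and 0.880 to 0.898 between phases.

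The balance of rises and falls rested on the scaling between libraries. The median log2 change of the 1595 peaks was 0.11 with the deposited scaling, against 0.07 over all 129347 peaks, and their per-library medians overlapped, at 5.72, 5.78 and 5.98 in G1 and 5.73, 5.76 and 5.84 in M-phase. Of the calls 65.6% were rises with the deposited scaling, 54.8% after TMM scaling, which trims extreme ratios between libraries, 46.0% after a loess correction for abundance and 35.8% with an equal total in every library, where the median of all peaks fell to -0.12 and that of lncRNA promoters to -0.16. The count of falls was 119 without G1 replicate 3, which had the highest total of the G1 libraries, and the stricter count was 157 without M-phase replicate 2 and 161 without M-phase replicate 3, against 243.

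With the deposited scaling most rises lay in CpG islands. Among the 611 peaks that overlapped a computed CpG island, 584 were tested, of which 212 (36.3%) rose and 29 (4.97%) fell, with a median change of 0.26. Among the 984 without an island, 865 were tested, of which 135 (15.6%) rose and 153 (17.7%) fell, with a median change of 0.00. Protein-coding promoters divided in the same order, with 49.5% higher and 3.83% lower in islands (median 0.48) and 14.7% higher and 15.4% lower outside them (median -0.02). An island was present in 38.3% of lncRNA promoters and 81.5% of protein-coding ones. Island peaks were above the others in median change under TMM (0.15 against -0.09), loess (0.06 and -0.02) and an equal total (-0.04 and -0.25), although with the equal total both medians were below 0 and with loess 108 island peaks rose and 86 fell. Outside islands 114 rose and 175 fell with loess, so that most rises were then not in islands, and 79 rose and 273 fell with an equal total. The falls numbered 14 in islands without M-phase replicate 2 and 98 outside islands without G1 replicate 3. The difference between both kinds was not tested, since peaks are not replicates.

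**Figure D1:**
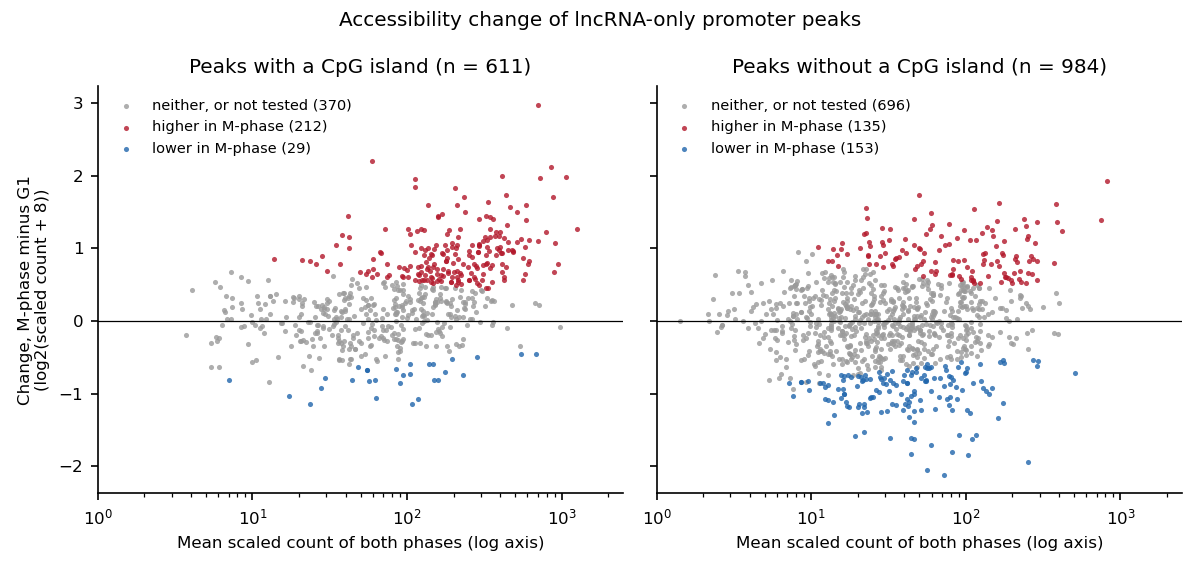
Change between the phases (vertical axis, M-phase minus G1 in log2(scaled count + 8)) against the mean scaled count (horizontal log axis) of the 1595 lncRNA-only promoter peaks, 1 point a peak, with islands on the left and without on the right. Red points were higher and blue points lower in M-phase (adjusted p under 0.05), with 212 red and 29 blue points in islands and 135 and 153 outside them.

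Level and island content went together, so the shares were also read at matched levels. Island peaks had a median scaled count of 104 and a median width of 977 bp, the others 33.6 and 557.5 bp, and per kilobase the medians were 105 and 62.8. Between mean scaled counts of 20 and 50, 10.1% of island lncRNA promoters rose and 4.20% fell, and above 200, 70.3% rose and 2.53% fell. Outside islands the corresponding shares were 10.7% and 19.1% at 20 to 50, and 54.9% and 9.80% above 200. Protein-coding promoters above 200 rose in 71.8% and fell in 2.31% within islands, and in 59.0% and 10.5% outside them. Above 100 the shares of lncRNA and protein-coding promoters that rose lay near each other within each class. In islands they were 10.1% and 4.29% between 20 and 50, and in the other order, 15.7% and 21.0%, between 50 and 100. Over the 209 lncRNA promoters above 200, 139 rose and 9 fell with the deposited scaling and 55 rose and 57 fell with loess, which by construction removes a trend with level. The falls among them numbered 5 and 4 without M-phase replicate 2 and 3.

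**Figure D2:**
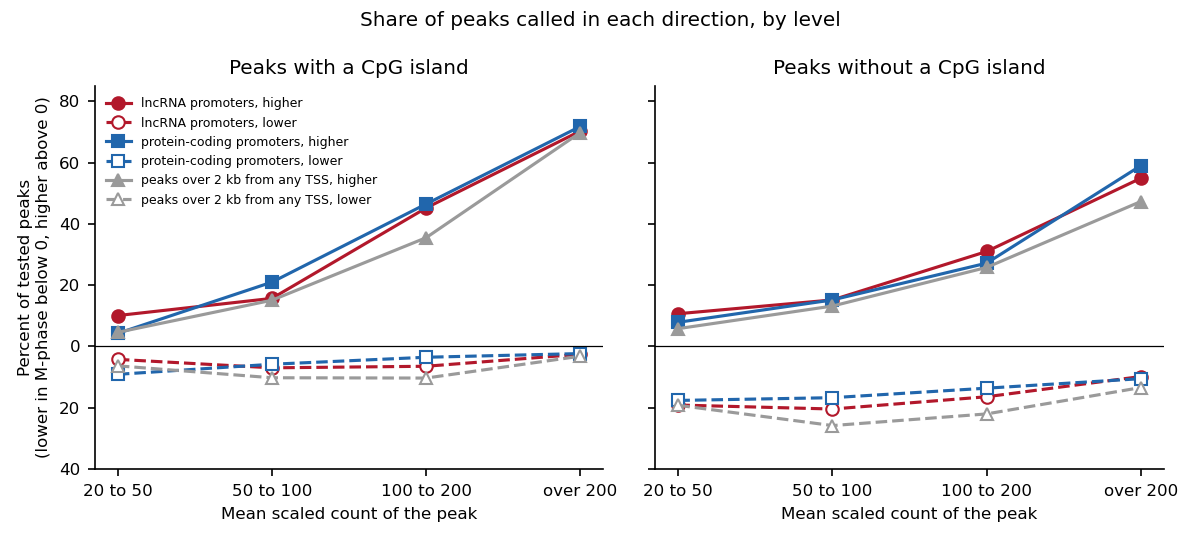
Percent of tested peaks higher in M-phase (filled symbols, above 0) and lower (open symbols, below 0) in 4 classes of mean scaled count, for lncRNA promoters, protein-coding promoters and peaks over 2 kb from any TSS, with and without a CpG island. In islands the share of lncRNA promoters that rose went from 10.1% to 70.3% between the lowest and the highest class, and the 3 kinds of peak lay between 69.8% and 71.8% in the highest class.

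The largest rise was at ENSG00000286644, a lncRNA gene without a symbol at chr5:180644174-180645348, 4.15 kb from the TSS of TRIM41. Its scaled counts were 141, 151 and 166 in the G1 libraries and 1159, 1202 and 1423 in the M-phase libraries. The change was 2.98 ± 0.16 (SE) with an adjusted p of 1e-27 in limma, and the phases lay far apart. This is the peak with the first A and B box shown above. The promoter peak of TRIM41, 5.06 kb away, also rose, from a mean of 658 to 2643 (change 2.00, adjusted p = 9.82e-21 in limma).

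Of the 10 largest rises 4 held an A and B box. LINC01962, a long intergenic noncoding RNA gene at chr5:180614535-180616559 near TRIM7, had 321, 242 and 387 in G1 and 1267, 1430 and 1457 in M-phase (change 2.12 ± 0.16). ENSG00000261889 at chr16:3206862-3209244 near ZNF213 had 321, 261 and 283 in G1 and 1017, 1221 and 1216 in M-phase (change 1.97 ± 0.16). ENSG00000287657 near FAM83A rose from 162 ± 36.0 to 661 ± 28.2 (mean and SD, n = 3; change 2.00). In all 3 the lowest M-phase library was far above the highest G1 library, although the absence of overlap was itself required by the rule. Over the 15 peaks with both boxes 10 rose and none fell in the limma test, with a median change of 1.15, and the 5 others ranged from -0.24 (ENSG00000228549) to 0.52 (ENSG00000287804 with ENSG00000286819). The shares over all tested peaks were 14.3% and 13.1%. These 15 peaks were strong, with a median scaled count of 293, and 93.3% overlapped an island. Island lncRNA promoters above 200 rose in 70.3% and fell in 2.53%, which is near these counts, with a median change of 0.76. Without G1 replicate 3, 13 of the 15 rose. Under loess 9 rose and 2 fell, and with an equal total 8 rose and 1 fell. Over all peaks, 107 of 137 tested peaks with both boxes rose and 1 fell, and among protein-coding promoters 25 of 29 rose. Both boxes were present in 0.940% of lncRNA promoters, 0.269% of protein-coding promoters and 0.110% of all peaks, and among peaks of 1000 to 2500 bp in 2.65%, 0.391% and 0.718%. Sequences with these boxes occur in families of near copies, and reads with up to 3 locations were kept at 1 of them, so reads of the copies can be shared. In the 3 stretches' peaks 3.93%, 19.3% and 8.63% of 31-base words occurred elsewhere in the genome, and in LINC01783, another peak with both boxes, 68.9% did (change -0.18, adjusted p = 0.561 in limma).

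The remaining large rises were at CpG-rich or broad promoters without both boxes. LINC02684 on chromosome 11, which lies 663 kb from the nearest protein-coding TSS, had 14.9, 17.2 and 16 in G1 and 90.6, 122 and 96.7 in M-phase (change 2.20 ± 0.25). The promoter shared by LINC02939, ENSG00000289044 and MIRLET7BHG, a host gene of let-7 microRNAs, had 490.1, 340.6 and 462 in G1 and 1579.8, 1752 and 1800.1 in M-phase (change 1.98 ± 0.15). A second MIRLET7BHG promoter peak at chr22:46474211-46476596 had 307, 341 and 370 in G1 and 1251, 1235 and 1431 in M-phase (change 1.92 ± 0.15). KRT10-AS1, antisense to the keratin gene KRT10 and starting inside it, had 46.7, 41.4 and 44 in G1 and 152, 224 and 169.9 in M-phase (change 1.85 ± 0.22). ENSG00000285703 on chromosome 6 rose by 1.95 ± 0.21, and the promoter shared by ENSG00000255139 and LINC02739 on chromosome 11 by 1.83 ± 0.20. None of these 6 peaks had overlapping phases.

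The largest falls were at CpG-poor promoters, all 10 without an island. ENSG00000203635 at chr2:1629005-1629714 had 99.4, 96.9 and 173 in G1 and 27.2, 25.1 and 13.5 in M-phase (change -2.12 ± 0.25, adjusted p = 3.99e-11 in limma). ENSG00000290112 at chr2:2617164-2617651, 282 kb from the TSS of MYT1L, which encodes a neuronal transcription factor, had 92.5, 68.0 and 127 in G1 and 16.1, 16.9 and 16.4 in M-phase (change -2.05 ± 0.25). PDK4-AS1 at chr7:95237826-95239112, whose CpG-poor centre is shown above, had 383, 327 and 509 in G1 and 108, 113 and 78.0 in M-phase (change -1.94 ± 0.19, adjusted p = 5.7e-14 in limma). It is named for PDK4, a kinase that inhibits pyruvate dehydrogenase and is induced by starvation. The promoter peak of PDK4 itself, 12.6 kb away, fell from 176 to 97.0 (change -0.81, adjusted p = 0.000893 in limma).

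TRG-AS1, antisense to the T cell receptor gamma locus, had 143, 127 and 233 in G1 and 44.1, 30.1 and 45.2 in M-phase (change -1.85 ± 0.23), and 35.1% of its 31-base words occurred elsewhere. DIRC3, a lncRNA gene first found at a renal cancer breakpoint, had 102, 85.2 and 98 in G1 and 21.4, 26.8 and 22.6 in M-phase (change -1.71 ± 0.24). HDAC2-AS2, which starts inside the histone deacetylase gene HDAC2 on its other strand, had 122, 125 and 169 in G1 and 39.5, 50.7 and 33.7 in M-phase (change -1.57 ± 0.22). The promoter peak of HDAC2, 24.7 kb away, did not pass the test (mean 245 in G1 and 267 in M-phase, change 0.12, adjusted p = 0.664 in limma). ENSG00000287157, inside HHAT on its other strand, fell by 1.62 on the log2 scale, and the HHAT promoter peak fell by 0.93 (adjusted p = 0.000852 in limma). The changes were -1.81 at ENSG00000271252, -1.57 at ENSG00000285957 and -1.34 at the promoter shared by LINC00853 and CYP4A22-AS1. In these peaks, too, every M-phase library was below every G1 library. G1 replicate 3 was the highest G1 library at each of these peaks except DIRC3.

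**Figure D3:**
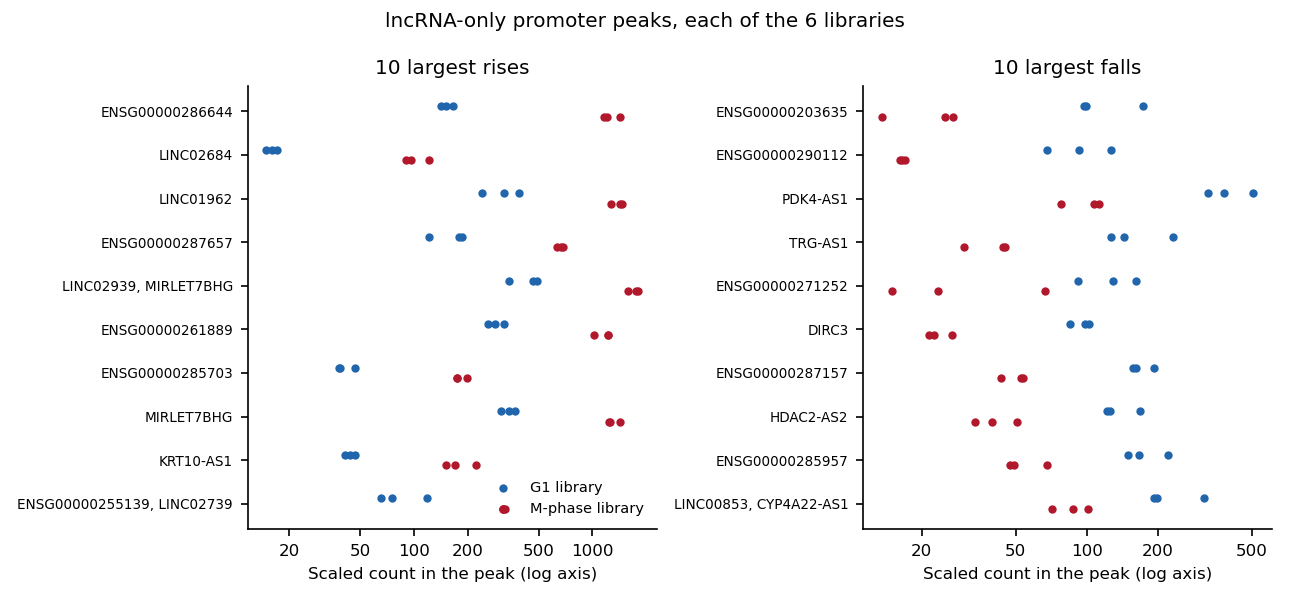
Scaled counts (horizontal log axis) of the 10 largest rises (left) and 10 largest falls (right) among lncRNA-only promoter peaks with an adjusted p under 0.05, a mean of at least 50 and no overlap, with a blue point for each G1 library and a red point for each M-phase library. ENSG00000286644 went from 141 to 166 in G1 to 1159 to 1423 in M-phase, and ENSG00000203635 from 96.9 to 173 to 13.5 to 27.2.

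Among the well known lncRNAs, the promoters of MALAT1, NEAT1 and NORAD rose. MALAT1, an abundant RNA of nuclear speckles, had 215, 163 and 220 in G1 and 683, 671 and 669 in M-phase at its main promoter peak, chr11:65264412-65266087 (change 1.73 ± 0.17, adjusted p = 3.69e-14 in limma). NEAT1, the scaffold of paraspeckles and a neighbour of MALAT1, had 398, 269 and 364 in G1 and 706, 760 and 797 in M-phase (change 1.13 ± 0.16). NORAD, an RNA that binds PUMILIO proteins, had 106, 82.0 and 134 in G1 and 245, 238 and 308 in M-phase (change 1.25 ± 0.20). In all 3 the phases did not overlap, and the NEAT1 call was lost under loess (0.25, adjusted p = 0.0699 in limma).

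Over the whole list, 32 of 57 genes had a promoter among the 1595 peaks, in 60 peaks of which 57 were tested. Of these 36 rose and 6 fell, with a median change of 0.68, against 14.3% and 13.1% of all tested peaks and 23.9% and 12.6% of tested lncRNA promoters. The list was not matched for level. Of the 209 lncRNA promoters with a mean scaled count above 200, 139 rose and 9 fell. The list was chosen with earlier results of these data known and its count is a description. It was 24 higher and 9 lower under loess and 28 and 11 with an equal total, and without G1 replicate 3 there were 3 falls. DLEU2, which hosts a pair of microRNAs, rose at both promoters, by 1.57 ± 0.17 where it starts beside DLEU1 and by 1.22 ± 0.15 at the other, which did not pass under loess (0.18, adjusted p = 0.133 in limma). TERC, the RNA template of telomerase, did not pass the test, with 77.5, 80.5 and 104 in G1 and 61.8, 94.4 and 75.5 in M-phase (change -0.17 ± 0.22), and with an equal total it fell (-0.49, adjusted p = 0.0495 in limma). KCNQ1OT1, an imprinted antisense RNA in KCNQ1, had 207, 185 and 193 in G1 and 251, 210 and 283 in M-phase and missed the threshold (change 0.33 ± 0.18, adjusted p = 0.188 in limma). FIRRE, an X-linked RNA, had 107, 122 and 159 in G1 and 123, 138 and 142 in M-phase (change 0.06 ± 0.20), and its phases overlapped. HOTAIR, transcribed from the HOXC cluster, had a mean of only 10.4 in G1 and 11.3 in M-phase, and MEG3, an imprinted RNA, 1.77 and 2.50, which is below the filter. JPX, an activator of X inactivation, fell from 57.9 ± 6.26 to 29.6 ± 1.46 (change -0.81 ± 0.25, adjusted p = 0.00912 in limma). HULC, described in liver cancer, rose from 7.43 to 20.1 (change 0.85), a call that was lost without G1 replicate 1 (adjusted p = 0.0666 in limma), without G1 replicate 2 (0.0626) and without M-phase replicate 1 (0.0992).

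CYTOR and MIR4435-2HG are near copies of each other on chromosome 2, and 83.2% to 89.1% of the 31-base words of their 4 peaks occurred elsewhere. Their upstream promoters gave nearly equal values, 153 in G1 and 342 in M-phase at CYTOR (with NCAL1) and 138 and 353 at MIR4435-2HG. Their other promoters did too, with 77.3 and 49.4 at CYTOR and 69.0 and 40.6 at MIR4435-2HG. The changes were 1.13 and 1.31 at the first pair and -0.58 and -0.63 at the second. Reads can be shared between the copies, so the values of both genes are uncertain and cannot be told apart. The fall at MIR4435-2HG (adjusted p = 0.0496 in limma) was lost without G1 replicate 2 (0.0627), G1 replicate 3 (0.355), M-phase replicate 2 (0.147) and M-phase replicate 3 (0.216), and under loess (0.0685). The CYTOR value (adjusted p = 0.0527 in limma) passed without G1 replicate 2 (0.0446) and M-phase replicate 1 (0.0455), and under TMM (0.00987), loess (0.0406) and an equal total (0.000842).

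Host genes of small RNAs were examined by class. Of 43 microRNA host promoters 40 were tested, 19 rose and 3 fell, with changes from -0.70 to 1.98 and a median of 0.38, against 14.3% and 13.1% of all tested peaks and 23.9% and 12.6% of tested lncRNA promoters. Their median scaled count was 92.4, against 48.4 over all lncRNA promoters, and the counts were not matched for level. Under loess 10 rose and 5 fell, and with an equal total 14 rose and 8 fell. MIR222HG, host of microRNAs that target the cell cycle inhibitor CDKN1B, had 16.9, 41.4 and 26 in G1 and 69.2, 91.1 and 111 in M-phase (change 1.48 ± 0.25). MIR31HG had 117, 107 and 153 in G1 and 296, 307 and 335 in M-phase (change 1.27 ± 0.19), and MIR17HG, host of an oncogenic microRNA cluster, 641, 574 and 853 in G1 and 1041, 1028 and 1214 in M-phase (change 0.68 ± 0.15). The phases did not overlap in these 3, but under loess the MIR17HG value turned to -0.44. The falls were at MIR3142HG, MIR130AHG and MIR4435-2HG (above), at -0.70, -0.63 and -0.63, and none of them passed without M-phase replicate 2. The fall at MIR130AHG was also lost without G1 replicate 1 (adjusted p = 0.0718 in limma) and without M-phase replicate 1 (0.267).

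Of 15 snoRNA host (SNHG) promoters 8 rose and none fell, against 14.3% and 13.1% of all tested peaks, with changes from -0.41 to 1.02 and a median of 0.57. An island was present in 86.7% of them, and their median scaled count was 143. Island lncRNA promoters with mean scaled counts of 100 to 200 rose in 45.2% and fell in 6.45%, which is near the snoRNA host counts. SNHG genes carry snoRNAs, which guide the modification of ribosomal RNA, in their introns. SNHG16, which shares its promoter with ENSG00000267546, had 119, 124 and 136 in G1 and 265, 244 and 285 in M-phase (change 1.02 ± 0.19). SNHG7 rose by 0.98 ± 0.19 and SNHG17 by 0.85 ± 0.19, while SNHG8 (-0.03 ± 0.21) and SNHG21 (-0.02 ± 0.20) overlapped between phases. The count was 5 without G1 replicate 1 or without M-phase replicate 2, and 3 under loess or an equal total. SNHG6, SNHG26 and SNHG30 were lost without G1 replicate 1 (adjusted p = 0.0822, 0.0516 and 0.0506 in limma) and without M-phase replicate 2 (0.0670, 0.0699 and 0.121). SNHG6 was also lost without G1 replicate 2 (0.0860) and M-phase replicate 3 (0.0982), and SNHG26 without G1 replicate 2 (0.0697) and M-phase replicates 1 (0.114) and 3 (0.0620). The medians of both host classes stayed above 0 under every scaling, at 0.09 to 0.38 for microRNA hosts and 0.11 to 0.57 for snoRNA hosts.

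Many lncRNA genes start at several places, and 91 named or numbered genes had 2 or more promoters among these peaks. At 17 of them at least 2 promoters rose and none fell, at 1 at least 2 fell and none rose, and at 4 both directions occurred. FTX is among the 4 through a fall at a peak that passed the filter only in G1. MIRLET7BHG rose at all 4 of its promoters, by 1.10 to 1.98. LINC-PINT, a p53-induced RNA, rose at all 3, by 1.10 to 1.61, and LINC00963 at all 3, by 0.78 to 1.45. MIRLET7BHG kept 3 of its rises under loess, LINC-PINT all 3 and LINC00963 1.

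LINC00511, which lies between SOX9 and SLC39A11, rose at 6 of 8 promoters and fell at 1. Its peak at chr17:70403291-70404243 had 98.4, 92.2 and 153 in G1 and 44.1, 51.5 and 75.1 in M-phase (change -0.91 ± 0.23, adjusted p = 0.00102 in limma). The next promoter at chr17:70417395-70418168 had 82.5, 83.6 and 78 in G1 and 122, 142 and 147 in M-phase (change 0.69 ± 0.21), and the largest rise, at chr17:70461410-70462722, was 1.29 ± 0.20. The phases overlapped at none of these. With an equal total 5 of the 8 rose and 2 fell, and with loess 5 rose and 1 fell.

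FTX, a gene of the X inactivation centre, had one promoter that fell and one that rose. The peak at chrX:73461942-73462160 had 22.9, 23.4 and 20 in G1 and 3.30, 4.10 and 2.90 in M-phase (change -1.40 ± 0.28, adjusted p = 4.53e-05 in limma). Its M-phase values were below the level of the filter on low counts. It was tested only through its G1 libraries, so this fall is weak evidence. The CpG island peak at chrX:73511706-73513689 had 155, 127 and 181 in G1 and 197, 219 and 301 in M-phase (change 0.60 ± 0.19, adjusted p = 0.0126 in limma), a rise that was lost without G1 replicate 2 (0.0698) and M-phase replicate 3 (0.178), under loess (0.13, adjusted p = 0.586) and with an equal total (0.26, adjusted p = 0.209). PVT1, the neighbour of MYC, rose by 1.39 ± 0.15 and 0.69 ± 0.20 at 2 promoters and fell by 0.75 at another with an adjusted p of 0.0227 in limma, with overlapping phases at the last. That fall was lost without G1 replicate 3 (adjusted p = 0.0806 in limma) or M-phase replicate 1 (0.289), and the smaller rise without M-phase replicate 3 (0.0523). Under loess both missed the threshold (adjusted p = 0.0516 and 0.108 in limma), and with an equal total the smaller rise did (0.0973). CASC15, which lies near SOX4, fell at 1 of its 4 promoters, from 35.5 ± 7.56 to 12.7 ± 2.11 (change -1.06 ± 0.28), and 2 of the 4 were below the filter. LUCAT1 rose at one promoter (0.52 ± 0.19) and not at the other (-0.32 ± 0.19), and the rise was lost without G1 replicate 1, M-phase replicate 2 or M-phase replicate 3 (adjusted p = 0.150, 0.167 and 0.0975 in limma). It was also lost under TMM (0.39), loess (0.04) and an equal total (0.18), where the other LUCAT1 promoter fell (-0.45, -0.80 and -0.66, with adjusted p = 0.0352, 1.7e-05 and 0.000409 in limma). Whether promoters of 1 gene differed in their change was not tested.

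**Figure D4:**
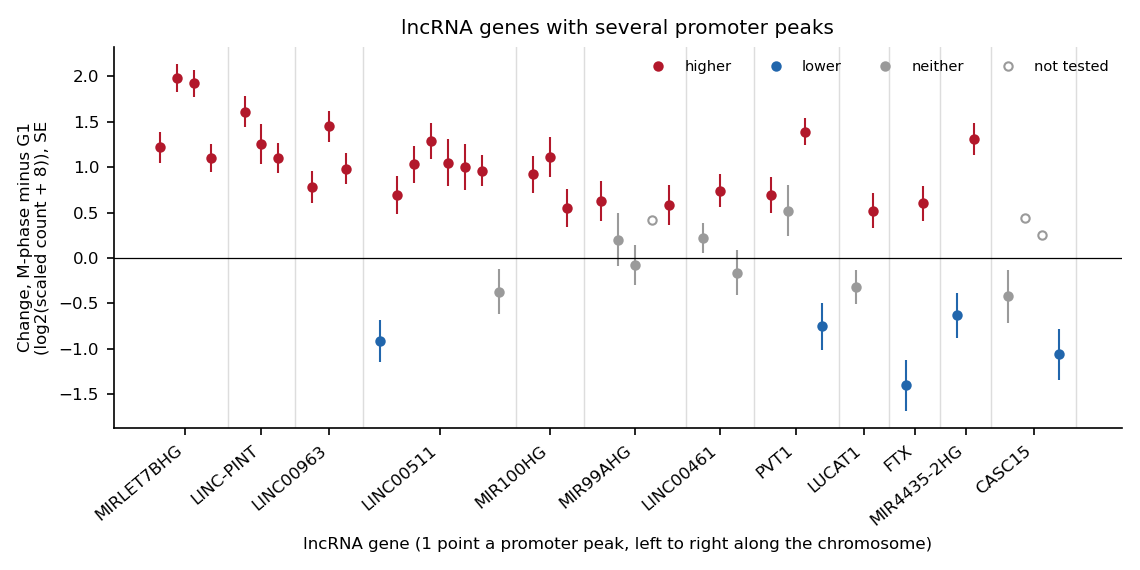
Change between the phases (M-phase minus G1, log2(scaled count + 8), with SE) at each promoter peak of 12 lncRNA genes, 1 point a peak in chromosome order, with red for higher, blue for lower, grey for neither and an open point for not tested. All 4 points of MIRLET7BHG lie above 1, while LINC00511 runs from -0.91 to 1.29 and FTX from -1.40 to 0.60.

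The arrangement of the gene went with the change. In 117 peaks lncRNA TSSs lay on both strands, and of 115 tested 60 rose and 9 fell (median 0.52), against 287 and 173 of 1334 (median 0.09) where they lay on 1 strand. Both-strand peaks were also stronger, with a median scaled count of 158 against 43.9, and more often in islands (77.8%). Within islands the shares that rose were 54.9% with both strands and 32.9% with 1. Peaks whose lncRNA genes had a single exon rose in 57 of 134 (median 0.40), and those of spliced genes in 290 of 1315 (median 0.09), with median scaled counts of 98.8 and 46.1. With loess 26 both-strand peaks rose and 24 fell, and 34 rose and 20 fell with an equal total, where 176 of the 1-strand peaks rose and 356 fell. The higher medians of both-strand and single-exon peaks held under every scaling, at 0.10 against 0.02 and 0.13 against 0.01 with loess. The falls on 1 strand numbered 112 and those of spliced genes 110 without G1 replicate 3.

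Most lncRNA promoters, 1359, lay outside protein-coding genes, 176 inside one on the other strand, 49 inside one on the same strand and 11 inside genes of both strands. The shares that rose were 24.7% outside and 21.2% antisense, and 6 of 43 sense peaks rose, against the 14.3% of all peaks, and within islands 36.9%, 35.7% and 22.2%, the last of only 18 tested peaks. By distance from a protein-coding TSS the share of rises was 32.8% at 2 to 5 kb, 28.3% at 5 to 20 kb, 23.9% at 20 to 100 kb and 17.5% beyond 100 kb. In islands it went from 48.3% to 22.5% and outside them only from 17.2% to 15.6%. The median scaled count went from 71.9 to 33.4 over the same distances.

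Protein-coding promoters near lncRNA promoters that rose mostly rose too. Beyond 5 kb, those near lncRNA promoters that fell did so in a minority. Of all tested protein-coding-only promoter peaks 43.6% rose and 5.79% fell. The sets are not alike, since a neighbour here was any peak with a protein-coding TSS, tested or not. The same neighbour could also count several times, as SOX9 did for the rises of LINC00511. Of 80 lncRNA promoters that rose and had their nearest protein-coding promoter peak 5 to 20 kb away, 60 had a neighbour that rose and none had one that fell. The counts were 94 and 4 of 149 at 20 to 100 kb and 63 and 0 of 108 beyond. Of 22 lncRNA promoters that fell with a neighbour at 5 to 20 kb, 9 had one that rose and 2 one that fell. Here the counts were 19 and 13 of 64 at 20 to 100 kb and 34 and 12 of 95 beyond. The changes of both peaks correlated with r of 0.585 over 30 pairs at 2 to 5 kb, 0.410 over 247 at 5 to 20 kb, 0.289 over 616 at 20 to 100 kb and 0.244 over 702 beyond. These pairs share the 6 libraries, so the counts and correlations are descriptions. By chromosome the median change of lncRNA promoters ran from -0.34 on chromosome 4 (46 peaks) to 0.48 on chromosome 14 (33 peaks), where protein-coding promoters had 0.14 and 0.59.

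Consensus sites were counted in the central 200 bases of each peak on both strands. The falls are illustrated with the centres of 2 of the largest, chosen because each holds RUNX letters. Other large falls held other letters at their centres, AP-1 at ENSG00000271252 and CEBP at ENSG00000287157, and are not shown. Capitals mark a RUNX site (TGTGGTT or its reverse complement) in both, which overlaps a TEAD site (ACATTCC) in ENSG00000203635, on the plus strand of hg19.
ENSG00000203635, chr2:1629259-1629458: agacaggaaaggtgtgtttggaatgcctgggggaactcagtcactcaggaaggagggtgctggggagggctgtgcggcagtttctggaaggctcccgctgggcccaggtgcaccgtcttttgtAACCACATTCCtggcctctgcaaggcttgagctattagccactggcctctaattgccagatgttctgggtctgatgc
HDAC2-AS2, chr6:114316653-114316852: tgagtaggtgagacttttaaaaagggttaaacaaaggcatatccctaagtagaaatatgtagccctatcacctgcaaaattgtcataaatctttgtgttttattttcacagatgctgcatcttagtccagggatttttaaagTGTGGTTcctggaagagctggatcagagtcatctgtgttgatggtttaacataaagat

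The RUNX letters stood in 4.51% of lncRNA promoters, 1.87% of protein-coding promoters and 4.75% of all peaks. Outside islands they stood in 20 of 153 falls (13.1%) and 7 of 135 rises (5.19%), against 6.40% of all lncRNA promoters there. CEBP letters (TTGCNNAA) stood in 23 of the 153 falls and 12 (8.89%) of the 135 rises, against 8.64%. TEAD letters stood in 9 falls and 3 rises, against 3.96%, and FOX letters (TGTTTAC) in 4 falls and 4 rises, against 2.74%. AP-1 letters (TGANTCA) stood in 28 falls (18.3%) and 36 rises (26.7%), against 19.8% of lncRNA promoters without an island, 13.8% of such protein-coding promoters and 11.8% of all peaks. Under the other scalings more peaks with AP-1 letters fell than rose, but the share with these letters stayed larger among rises than among falls. They stood in 33 of 114 rises and 39 of 194 falls under TMM. The counts were 35 of 114 and 37 of 175 under loess, and 22 of 79 and 54 of 273 with an equal total. These differences were not tested. Peaks without an island and with RUNX letters had a median change of -0.29 and those with CEBP letters -0.11, both below 0 under every scaling. Under TMM, loess and an equal total the medians were -0.41, -0.28 and -0.60 with RUNX letters, and -0.16, -0.16 and -0.30 with CEBP letters. All lncRNA promoters without an island had -0.09, -0.02 and -0.25 there, and 0.00 with the deposited scaling. Without G1 replicate 1 there were 13 falls with RUNX and 15 with CEBP letters, and without G1 replicate 3, 15 falls with CEBP and 16 with AP-1 letters. The rises with RUNX letters numbered 3 without M-phase replicate 3 and 4 when any other library except G1 replicate 3 was left out. NRF1 letters (CGCANGCGC) stood in 33 tested lncRNA promoters, of which 15 rose and none fell, and ETS letters (CCGGAAGT) in 24, of which 7 rose and none fell. The shares were 23.9% and 12.6% of all tested lncRNA promoters, and 36.3% and 4.97% of those in islands. Both contain CG dinucleotides, and only 6 of 40 peaks with NRF1 and 7 of 24 with ETS letters had no island. At 4.97% such small sets would hold few falls or none. The letters stood in 0.816% and 0.507% of all peaks. A TATAAA box 19 to 40 bases before the TSS was present in 25 lncRNA promoters (1.57%), against 1.78% of protein-coding promoters and 1.87% of all promoter peaks. These counts describe letters, and binding was not measured.

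The MALAT1 promoter is shown as an example of a CpG-rich promoter that rose, with a GC box (GGGGCGGGG or its reverse complement) and a CEBP site in capitals, on the plus strand of hg19.
MALAT1, chr11:65265149-65265348: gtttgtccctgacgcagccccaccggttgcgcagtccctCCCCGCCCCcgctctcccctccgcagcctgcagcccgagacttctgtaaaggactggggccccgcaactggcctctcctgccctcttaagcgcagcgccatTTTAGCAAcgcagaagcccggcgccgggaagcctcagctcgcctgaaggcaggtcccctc

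By level, the 5 strongest lncRNA promoters were GASAL1, the LINC02939 and MIRLET7BHG promoter, ENSG00000291149, MIR663AHG and LINC01003. GASAL1 had 737, 671 and 821 in G1 and 1681, 1820.4 and 1854 in M-phase (change 1.26 ± 0.14), and under loess its value was 0.03 (adjusted p = 0.833 in limma). LINC01003, near KMT2C, had 558, 513 and 689 in G1 and 1103, 1311 and 1299 in M-phase (change 1.07 ± 0.15), and under loess its value was -0.03. ENSG00000291149 did not pass, with 841, 819.5 and 1394 in G1 and 853, 988 and 951 in M-phase (change -0.09 ± 0.15, adjusted p = 0.733 in limma), although it fell under loess (-1.24) and with an equal total (-0.44). Of its 31-base words 95.5% occurred elsewhere, so its reads can come from copies. MIR663AHG was strongest per length, at 1729 scaled counts per kilobase, with 603, 884 and 601 in G1 and 1071, 1239 and 1267 in M-phase (change 0.79 ± 0.15) and a value of -0.34 under loess. At least 50% of the words had a copy in 160 lncRNA promoters, of which 138 were tested, 18 rose and 13 fell. Among the 1028 tested peaks with under 5% of such words, 24.5% rose and 14.8% fell with the deposited scaling. These shares were not computed under the other scalings, and an effect of copies was not tested.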

How the data were processed

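The members and the lists of genes and motifs were chosen with earlier results of these data known. As the study's methods describe, the authors trimmed reads with cutadapt, mapped them to hg19 with Bowtie in QuasR, keeping 1 location of reads with up to 3, dropped mitochondrial reads by means of SAMtools and, after pooling replicates, used MACS2 to find broad peaks. Tool versions, a Tn5 shift and the joining of the M-phase platforms' runs are not given in the sources used here. The deposited signal values hold reads counted per peak, with every library scaled by the authors to the smallest. Their own log2 difference between phases and its SD were not used. The chromatin fraction and input samples were not analysed here.

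In R 4.3.3, log2(scaled count + 8) was modelled with limma 3.58.1, allowing the variance to follow the mean, in the 3 G1 and 3 M-phase libraries without covariates. A fold change on this scale understates the change of weak peaks. Peaks were tested when they held a total of at least 15 and reached, in 3 or more libraries, what 10 amounts to at the median library size, which kept 73121 peaks. The counts behind a scaled value are not known exactly, so no counting interval is given. On simulated data over 73121 peaks with 200 changed, 0.5% of peaks changed 1.5-fold, 34% of 2-fold and 100% of 4-fold changes were called, with 0, 4 and 7 false calls. In the real data 10439 peaks were called higher and 9548 lower. The Benjamini-Hochberg cutoff is more lenient when more peaks change, so these rates do not carry over to the real comparison. No column was identical to another.

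Peaks named in the text are the 10 largest rises and falls with an adjusted p under 0.05, a mean of at least 50 and no overlap between phases, the 5 strongest, well known lncRNAs, and host genes of small RNAs. Others (genes with several promoters, peaks with an A and B box) were chosen after their values were seen. CpG islands were computed from the sequence (at least 200 bp, GC of at least 50%, observed over expected CpG above 0.6, score 17 per CpG). A copy means a 31-base word that occurs elsewhere. Python 3.11.15, numpy 2.4.6, pandas 2.3.3, pysam 0.24.0, numba 0.67.0 and matplotlib 3.10.9 were used. The alternatives were other scalings, a pseudocount of 1, other filters, a replicate block, each library left out and other member definitions.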

Additional observations from a re-analysis of the deposited data

How the results depend on the processing

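The counts of 347 rises and 182 falls and the median of 0.11 moved most with the scaling, and the 243 stricter calls with the libraries left out. Rises numbered 222 with the loess correction for abundance and 210 with an equal total, falls 376 with an equal total, and the median was -0.16 with an equal total, where the all-peak median went from 0.07 to -0.12. Leaving out 1 library gave 264 to 407 rises, 119 to 146 falls, 157 to 289 stricter calls and medians of 0.07 to 0.17. TMM, a pseudocount of 1, both other filters and the 3 other member definitions kept every count within 1.5 times. The replicate numbers are shared in name only, since deviations of same-numbered libraries correlated with r = 0.00594, -0.0101 and 0.0284, and with the replicate block 356 rose, 190 fell and 278 passed the stricter threshold. Of 140 named peaks that were tested 9 turned direction with loess, each positive with the deposited scaling: MIR663AHG (-0.34), LINC01003 (-0.03), LINC01116 with LINC01117 (-0.57), LINC00461 (-0.81), MIR17HG (-0.44), GBAP1 (-0.02), ENSG00000289878 (-0.47), MIR181A2HG (-0.01) and FAM182B (-0.64). Under the other settings no peak that was called in either fit turned direction, while values of uncalled peaks near 0 could change sign. The cause of these shifts was not tested beyond what each setting does by construction. The planned count tests (edgeR and DESeq2) were not run, because the deposited values do not give whole reads back for nearly all peaks in each library.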

Other observations

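The 144 peaks that touched lncRNA TSSs alone but lay within 2 kb of a protein-coding TSS were not counted as members. Of 132 tested 39 rose (29.5%) and 9 fell (6.82%), with a median change of 0.13 and a median scaled count of 41.8. Of 93610 CpG-poor peaks over 2 kb from any TSS, 46368 were tested, of which 5.86% rose and 15.9% fell, against 15.6% and 17.7% of CpG-poor lncRNA promoters, whose median scaled count was 33.6 against 9.10. Between mean scaled counts of 20 and 50 the shares were 5.84% and 19.2% for those distal peaks and 10.7% and 19.1% for the lncRNA promoters, and above 200 they were 47.3% and 13.4%, and 54.9% and 9.80%. The B box letters alone stood in 60 lncRNA promoters (3.76%), of which 35 rose and 2 fell, against 6.61% of protein-coding promoters and 2.01% of all peaks. The 16 promoters of genes named as divergent transcripts had 2 rises and 3 falls among 14 tested, and the 134 of genes named as antisense had 35 rises and 21 falls among 127. Over all tested lncRNA promoters the shares were 23.9% and 12.6%, and over all tested peaks 14.3% and 13.1%.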
